A study of Homo sapiens with 12 samples.

Results

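In MDA-MB-231 cells, 1374 stretches of chromatin that carried H3K27ac in every library were acetylated over a longer length after CDK19 knockdown than after CDK8 knockdown. They were chosen by covered length alone. Overlapping or touching peaks of 9 peak lists were merged on chromosomes 1 to 22, which gave 117312 regions. Of these, 30540 were held by all 9 lists and were 3000 to under 40000 bp wide, and they are called constant regions here. A constant region was a member when the CDK19KD list that covered the fewest base pairs of it still covered more than the CDK8KD list that covered the most. The rule thus compared the 3 CDK19KD and 3 CDK8KD lists, and any difference between those groups in the members is a description and not a finding. The Control lists entered only through the merging and the need to be held by all 9 lists. The 1374 members were 4.50% of the constant regions, whereas 6131 (20.1%) had the opposite order. Random labels would give either order in a share of 0.1 of the regions, divided evenly between both orders. The members' share did not exceed its part of that.

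The study profiled MDA-MB-231, an established human breast cancer line of mesenchymal, basal-like character. The control cells were infected with a lentivirus named EV-control, and the knockdown cells with a lentivirus carrying CDK19 shRNA (CDK19KD) or CDK8 shRNA (CDK8KD), each 96 h before harvest. Native, unfixed chromatin was precipitated with an antibody to H3K27ac. Each of the 3 groups had 3 libraries with 1 peak list each, and the 3 Input samples were not analysed here. Peak lists hold no measure of CDK8 or CDK19 RNA or protein, and how far either knockdown reduced its target was not analysed here.

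CDK8 and CDK19 are closely related cyclin-dependent kinases. Either one can join cyclin C, MED12 and MED13 in the kinase module of Mediator, the complex that connects transcription factors at enhancers to RNA polymerase II. H3K27ac, acetylation of lysine 27 of histone H3, marks active promoters and enhancers. It is laid down mainly by the acetyltransferases p300 and CBP, and where many enhancers lie close together it forms wide domains. A broad peak here is a stretch called enriched in 1 library, and its length says how far the enriched signal reached, not how high it was. In a population of cells, acetylation in fewer cells and less acetylation per cell cannot be told apart.

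The lists of the 9 libraries held 60958 to 85366 peaks on chromosomes 1 to 22, and between 17.2% and 43.8% of a list's peaks had a deposited −log10 q of at least 5. Within the constant regions the Control lists covered 195, 215 and 210 Mb, the CDK19KD lists 200, 192 and 193 Mb, and the CDK8KD lists 217, 217 and 226 Mb (replicates 1, 2 and 3). Every CDK19KD list therefore covered less than every CDK8KD list. The log2 ratio of the group means was −0.17 (exact two-sided permutation p = 0.1, the smallest that 6 lists allow). CDK19KD had the higher mean in 9443 constant regions (30.9%). The members ran against the general order of the lists.

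In the members the CDK19KD lists covered a median of 81.1%, 79.2% and 76.9% of a region, and the CDK8KD lists 53.9%, 49.9% and 46.8%. The Control lists covered 63.1%, 73.5% and 57.6%. Every CDK19KD list lay above every CDK8KD list, as the rule required, and all 3 Control lists lay between them. The rule set no place for Control, but it picked high CDK19KD and low CDK8KD values. Group means of these medians were 79.1% ± 2.11 in CDK19KD, 64.7% ± 8.07 in Control and 50.2% ± 3.54 in CDK8KD (SD, n = 3). Over all constant regions the order was another one, with 63.8% ± 2.78 in CDK19KD, 67.2% ± 3.65 in Control and 72.5% ± 1.07 in CDK8KD (SD, n = 3).

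**Figure D1:**
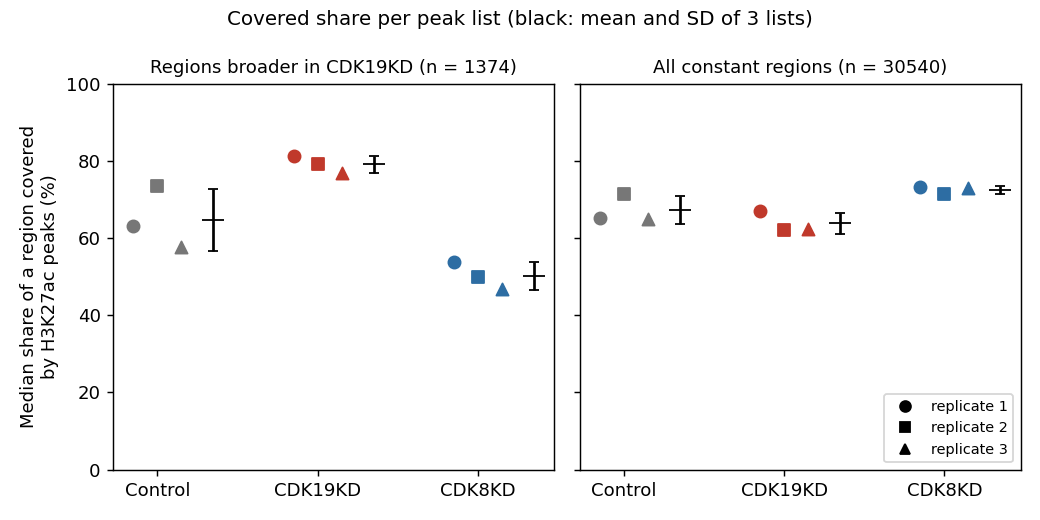
Median share of a region covered by H3K27ac peaks (vertical axis, %) in each of the 9 lists, for the 1374 members (left) and all 30540 constant regions (right); symbols give the replicate number, and black marks the mean and SD of 3 lists. In the members the CDK19KD lists sit at 76.9% to 81.1%, above all others, and over all constant regions the CDK8KD lists are among the highest, at 71.3% to 73.3%.

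Summed over the members, the covered length was 9.49, 9.35 and 9.13 Mb in the CDK19KD lists, 7.57, 8.74 and 7.29 Mb in the Control lists and 6.60, 6.20 and 5.88 Mb in the CDK8KD lists. No list of one group reached into the range of another. These sums were 4.72% to 4.86% of what a CDK19KD list covered in the constant regions, 3.47% to 4.07% for Control and 2.60% to 3.05% for CDK8KD. The mean extra length of a member in CDK19KD over CDK8KD had a median of 1797 bp, with quartiles at 1185 and 2792 bp. As a ratio of group means it had a median of 1.53 (quartiles 1.30 and 1.90, highest 7.87). Lists of the same replicate number differed by a median of 1661 bp (number 1), 1774 bp (number 2) and 1799 bp (number 3). Members were 3001 to 37599 bp wide, with a median of 6945 bp, against 7816 bp for all constant regions.

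The gap that separated the groups was narrow in most members. From the lowest CDK19KD list to the highest CDK8KD list it had a median of 455 bp. It was at least 1000 bp in 352 members (25.6%), at least 4000 bp in 22 (1.60%), and under 100 bp in 194 (14.1%). At the threshold, chr2:99059732-99064149 was covered over 3695, 3360 and 2862 bp in CDK19KD and 2670, 2753 and 2860 bp in CDK8KD, so it entered by 2 bp. Likewise chr5:43709317-43714596 entered by 2 bp, with 2300 bp in the lowest CDK19KD list and 2298 bp in the highest CDK8KD list. The last such region, chr6:106204353-106213915, had 4719 and 4717 bp at those places. Just outside, chr14:89448036-89471601 had 22869 bp at both places, and chr6:17097464-17100741 had 2343 bp at both. For chr16:53162887-53168787 the lowest CDK19KD list covered 3943 bp and the highest CDK8KD list 3944 bp. The threshold thus separated regions that differed by a few base pairs.

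Whether a test of each constant region called the members depended on the replicate numbers. With limma on the covered share of all 30540 constant regions and all 9 lists, CDK19KD against CDK8KD gave 0 regions higher (0.00%) and 0 lower (0.00%) at an adjusted p under 0.05. At an unadjusted p under 0.05, 953 regions (3.12%) were higher and 4352 (14.3%) lower, and 698 of the members (50.8%) were among the former, on the contrast that had picked them. With the replicate number as a block, the same fit called 668 regions higher (2.19%) and 2953 lower (9.67%), and 517 of the members were among the 668. Same-numbered CDK19KD and CDK8KD lists deviated together from their group means, with correlations of 0.212 to 0.515 in the 3 pairs. Without a block and without Control replicate 3 limma called 132 regions higher, 126 of them among the 1457 that then met the rule, and 381 lower. Without CDK8KD replicate 3 it called 1 higher, and without any other single list 0 in either direction. All these fits test the contrast that picked the members, so each count of members among the calls is a description. The labels do not say whether libraries of a group came from separate cultures, so the p-values measure only the spread between these libraries.

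The 10 members with the widest gap were 10878 to 29228 bp wide. The first, chr1:31984669-32003882, is 19214 bp wide. It was covered over 19214, 18083 and 17898 bp in CDK19KD, 8213, 8761 and 6302 bp in Control and 9675, 8071 and 7970 bp in CDK8KD. Each CDK19KD list held it as 1 peak, while the CDK8KD lists held 2 peaks each and the Control lists 3, 5 and 3. Control and CDK8KD overlapped there, and CDK19KD stood apart from both by at least 8223 bp.

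In chr5:115261769-115280564, 18796 bp wide, the lists covered 17085, 16510 and 17297 bp in CDK19KD, 7889, 9870 and 6410 bp in Control and 7675, 8773 and 6366 bp in CDK8KD. Here too the Control and CDK8KD lists overlapped and the CDK19KD lists lay far above them. The strongest peak of this region was among the high ones of every list, from the 84.7th to the 97.4th percentile by the deposited −log10 p. Its fold enrichment, the authors' ratio over background, was 5.25, 5.93 and 5.47 in CDK19KD and 6.27, 5.55 and 6.04 in CDK8KD, so the groups overlapped in height in this region. Over all members the median fold enrichment did not overlap, at 3.98, 3.61 and 4.26 in CDK19KD and 3.23, 3.12 and 3.12 in CDK8KD, with 3.58, 3.21 and 3.16 in Control. Over all constant regions it was 4.28, 3.79 and 4.45 in CDK19KD, 4.07, 3.80 and 4.02 in CDK8KD and 4.21, 3.49 and 3.57 in Control, with overlap of all groups. The members were picked by covered length in the same knockdown lists, so their separation in height is a description.

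The next regions differed in where Control lay. For chr7:33905135-33924764 (19630 bp) the covered lengths were 19630, 17478 and 16148 bp in CDK19KD, 17986, 14552 and 9610 bp in Control and 9095, 7860 and 4605 bp in CDK8KD. Control reached into the CDK19KD range and stayed above CDK8KD. Its fold enrichment was 4.10, 3.90 and 4.75 in CDK19KD and 3.48, 3.25 and 2.94 in CDK8KD, without overlap. In chr11:111389325-111415135 (25811 bp) they were 23343, 22253 and 21945 bp in CDK19KD, 18823, 24696 and 15789 bp in Control and 16268, 15197 and 13688 bp in CDK8KD. The Control lists overlapped with both knockdowns there. The region chr15:59020275-59044490 (24216 bp) had 20723, 19783 and 21162 bp in CDK19KD, 18525, 21825 and 19808 bp in Control and 14788, 13114 and 14772 bp in CDK8KD. Control and CDK19KD were mixed in it, and CDK8KD was lower by at least 3737 bp.

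In 1 of these 10 the Control mean was the highest of the groups. The region chr2:32626115-32655342, 29228 bp wide, was covered over 5125, 15175 and 24500 bp in Control, 12931, 7035 and 8924 bp in CDK19KD and 1758, 820 and 1974 bp in CDK8KD. The Control lists spread widely enough to enclose all CDK19KD lists, and the CDK8KD lists formed a tight set below.

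Another pair lies on chromosome 4, on either side of the stretch from 176 to 177 Mb. The first, chr4:175788239-175800262 (12024 bp), had 11583, 9171 and 9604 bp in CDK19KD, 4419, 4547 and 2721 bp in Control and 4136, 2456 and 2402 bp in CDK8KD. The other, chr4:177222015-177232892 (10878 bp), had 8222, 9221 and 10169 bp in CDK19KD, 3046, 4749 and 3250 bp in Control and 3482, 2559 and 1710 bp in CDK8KD. In both, Control and CDK8KD overlapped and CDK19KD did not touch them.

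Of the remaining members among the 10, chr2:173690999-173705132 (14134 bp) kept the 3 groups apart. It was covered over 13053, 13537 and 11853 bp in CDK19KD, 9196, 11258 and 7931 bp in Control and 5502, 6908 and 3487 bp in CDK8KD. The last, chr12:91513917-91528225 (14309 bp), varied widely within groups, with 13582, 9158 and 12105 bp in CDK19KD, 7124, 8209 and 300 bp in Control and 4283, 1452 and 306 bp in CDK8KD. Replicate 3 of Control and of CDK8KD covered the least of it.

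**Figure D2:**
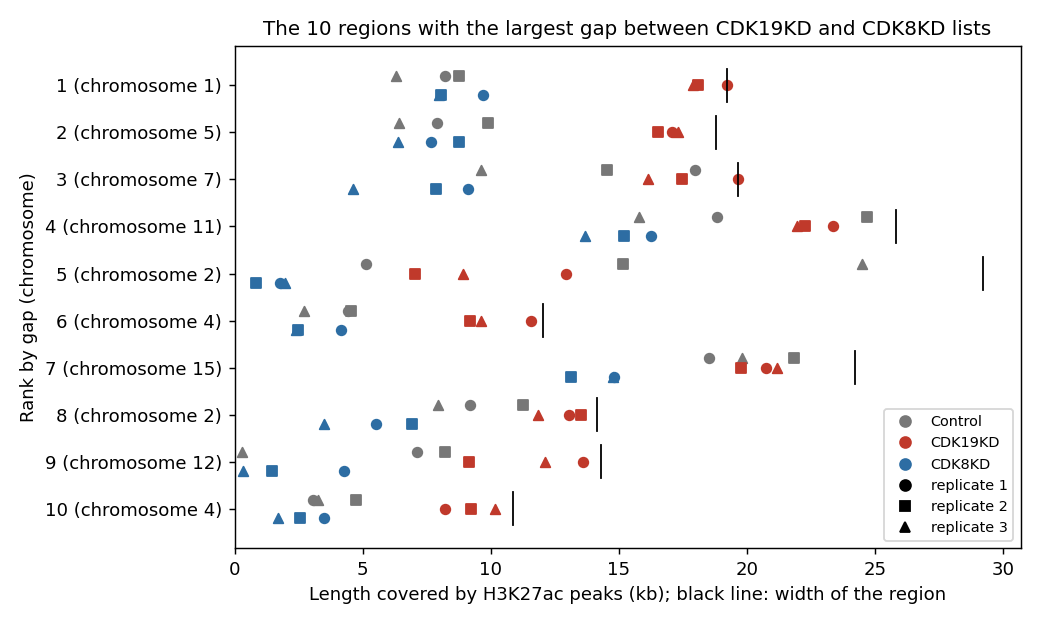
Length covered by H3K27ac peaks (horizontal axis, kb) in each of the 9 lists for the 10 members with the widest gap, ranked 1 to 10; colour gives the group, the symbol the replicate number and the black line the width of the region. CDK19KD lists lie to the right of all CDK8KD lists in each region, while Control lists overlap with CDK8KD alone at ranks 1, 2, 6, 9 and 10, with CDK19KD alone at ranks 3, 5 and 7, with both at rank 4 and with neither at rank 8.

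As a share of the width, the gap was widest in smaller regions. In chr10:94994291-94997437 (3147 bp) it was 55.2% of the width. The lists covered 3147, 2652 and 2491 bp in CDK19KD, 1622, 1246 and 2385 bp in Control and 689, 521 and 753 bp in CDK8KD, and the 3 groups did not overlap. The same separation held in chr13:49925273-49933194 (7922 bp), with 5902, 7852 and 6656 bp in CDK19KD, 4807, 3587 and 3498 bp in Control and 393, 1485 and 1648 bp in CDK8KD. In chr1:217444463-217451597 (7135 bp) the values were 5803, 6281 and 6698 bp in CDK19KD, 5105, 4918 and 2645 bp in Control and 2263, 1828 and 2064 bp in CDK8KD, again with no overlap. That region stood far from others, 281237 bp from the nearest constant region. The other two of the 5, chr14:85902023-85908882 and chr2:122040061-122044006, had gaps of 51.2% and 50.9% of their width, and Control overlapped with CDK19KD in the former and with CDK8KD in the latter.

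Over all members the Control lists took no fixed place. The Control mean lay between both knockdown means in 771 members (56.1%), above the CDK19KD mean in 321 (23.4%) and below the CDK8KD mean in 282 (20.5%). Over all constant regions it was above the CDK19KD mean in 59.3% and below the CDK8KD mean in 59.8%. Set on a scale from 0 at the CDK8KD mean to 100 at the CDK19KD mean, Control had a median of 50.2, with quartiles at 9.31 and 95.5. All 3 Control lists lay below all CDK19KD lists in 415 members (30.2%), an order found in 6.93% of the constant regions. In 362 members (26.3%) all Control lists lay above all CDK8KD lists, an order found in 4.45% of the constant regions. Both held in 21 members (1.53%), which were 0.0688% of the constant regions, as any region with both orders is a member. Neither held in 618 members, against 88.7% of the constant regions. All Control lists lay above all CDK19KD lists in 29 members (2.11%), where the background was 8.75%, and below all CDK8KD lists in 27 (1.97%), where it was 16.0%. Since the members were picked for high CDK19KD and low CDK8KD values, these shares cannot be read against the background, and both comparisons share the Control lists.

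By limma, CDK19KD against Control called 1 constant region higher (0.00327%) and 0 lower (0.00%), and CDK8KD against Control called 1 higher (0.00327%) and 0 lower (0.00%). None of them was a member. With the replicate block, CDK19KD against Control had 489 higher (1.60%) and 351 lower (1.15%), with 158 members among the former and 1 among the latter. The 3 same-numbered pairs of these groups correlated at 0.261 to 0.463. Without the block, at an unadjusted p under 0.05, 356 members (25.9%) were higher in CDK19KD than in Control, where the background was 4.74%, and 4 were lower, where it was 5.29%. For CDK8KD against Control 284 members (20.7%) were lower, where the background was 3.12%, and 17 were higher, where it was 13.5%. The rule picked high CDK19KD and low CDK8KD values, so these limma counts of members cannot be read against the background either, with or without the block. The place of Control differed between single Control lists. Control replicate 2, which had the most peaks, lay below all CDK19KD lists in 45.5% of the members, replicate 1 in 61.7% and replicate 3 in 68.4%. Without Control replicate 1, 2 or 3, 521 of 1376, 651 of 1397 and 534 of 1457 regions had Control below CDK19KD, in place of 415. Of the same regions 504, 425 and 689 had Control above CDK8KD, in place of 362. An order over fewer Control lists is easier to meet. Leaving out a knockdown list also raised the number of regions that met the rule, which is given with each count. Without CDK19KD replicate 1, 2 or 3, Control lay below CDK19KD in 648 of 1874, 823 of 2106 and 936 of 2773. Without CDK8KD replicate 1, 2 or 3, it did so in 675 of 3143, 551 of 2132 and 564 of 2181. Control lay above CDK8KD in 434 of 1874, 459 of 2106 and 569 of 2773 without CDK19KD replicate 1, 2 or 3. Without CDK8KD replicate 1, 2 or 3, that order held in 1107 of 3143, 736 of 2132 and 744 of 2181.

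**Figure D3:**
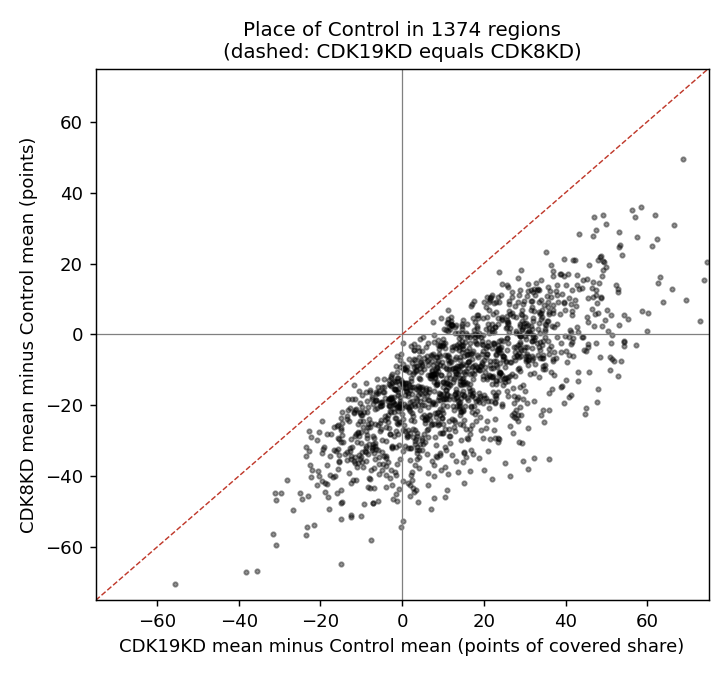
Each point is 1 of the 1374 members, with the CDK19KD mean minus the Control mean (horizontal axis) and the CDK8KD mean minus the Control mean (vertical axis), both in points of covered share. All points lie below the dashed line because of the rule, and 771 of them (56.1%) lie to the lower right of the zero lines, where Control is between both knockdowns.

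The 5 members in which CDK19KD stood farthest above Control and the 5 in which CDK8KD stood farthest below it are described next. They had no region in common, which the choice made likely, since both rankings use the same Control lists in opposite directions. In chr10:23683736-23705268 (21533 bp) the lists covered 20924, 19297 and 18351 bp in CDK19KD, 10191, 8656 and 7914 bp in Control and 17312, 12713 and 10043 bp in CDK8KD. In 2 of the 3 CDK8KD lists the value also exceeded every Control list. In chr1:117706191-117717173 (10983 bp) they were 10983, 9268 and 8843 bp in CDK19KD, 2520, 345 and 1660 bp in Control and 7113, 2110 and 2077 bp in CDK8KD. CDK8KD replicate 1 stood apart from its group in that region. In chr2:28853525-28888980 (35456 bp) both knockdowns covered more than Control, with 30638, 33701 and 35251 bp in CDK19KD, 28906, 29138 and 29955 bp in CDK8KD and 20839, 23372 and 24436 bp in Control. The regions on chromosomes 1 and 5 with the widest gaps, described above, made up the rest of these 5.

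At the other end, chr6:56654385-56687532 (33148 bp) was covered over 20314, 30636 and 21460 bp in Control, 26120, 28356 and 18190 bp in CDK19KD and 13662, 12085 and 5658 bp in CDK8KD. Control and CDK19KD had nearly the same mean there, 24137 ± 5658 and 24222 ± 5342 bp, against 10468 ± 4240 bp in CDK8KD (SD, n = 3). The region chr9:114991881-115016559 (24679 bp) had the same form, with 19844, 20761 and 21018 bp in Control, 18111, 20856 and 22190 bp in CDK19KD and 13478, 13051 and 9140 bp in CDK8KD. In chr8:32556416-32581493 the means were 22011 ± 2053 bp in Control, 19819 ± 1810 bp in CDK19KD and 13666 ± 702 bp in CDK8KD (SD, n = 3). The Control mean was also above the CDK19KD mean in the other two, chr18:55914352-55948363 and chr17:49130284-49149540. In the latter the Control lists covered 10847, 13061 and 12726 bp, the CDK19KD lists 6819, 9331 and 8604 bp and the CDK8KD lists 4448, 4419 and 5561 bp, so that both knockdowns were narrower than Control.

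Counted by the span of the peaks, the extra length lay mostly at the ends of the acetylated stretch. Together the members had 3.10 Mb more in the mean CDK19KD list than in the mean CDK8KD list. Of this, 2.59 Mb (83.5%) came from a longer span between the first and the last peak of a region, and 0.511 Mb (16.5%) from gaps closed inside it. The ends gave most of the extra length in 1209 members (88.0%), and in 27 the span was shorter in CDK19KD. Where all knockdown lists held a region as 1 peak, span and covered length were the same, so all extra length counted to the ends. All 3 CDK19KD lists held 67.2% of the members as 1 peak, and all 3 CDK8KD lists 60.7%. The large share of the ends is thus in part built in. For the 6131 regions broader in CDK8KD the ends gave 78.4%. All peaks of a list lay at least 1001 bp apart, so a shorter gap could not appear.

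Most members were a single peak in a single library. A CDK19KD list held 82.4%, 76.5% and 80.4% of the members as 1 peak, a Control list 72.0% to 79.0%, and a CDK8KD list 78.2%, 71.3% and 75.4%. Each list held 72.1% to 82.1% of all constant regions as 1 peak, other than CDK19KD replicate 2 with 69.2%. In 17 members (1.24%, against 0.232% of the constant regions) all CDK19KD lists had 1 peak and all CDK8KD lists at least 2, as in the region on chromosome 1 with the widest gap. The complete width was covered in 4.22%, 2.47% and 2.55% of the members by the CDK19KD lists, in 0.437%, 3.20% and 0.873% by the Control lists. A CDK8KD list could not cover the complete width of a member under the rule. Over all constant regions complete coverage was found in 1.16%, 0.485% and 0.530% for the CDK19KD lists, in 0.675%, 3.09% and 1.39% for Control and in 3.41%, 1.82% and 3.09% for CDK8KD.

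Stretches that all 3 CDK19KD lists covered and no CDK8KD list did were found in 1137 members (82.8%), and in 280 members (20.4%) they added up to at least 1000 bp. Over all constant regions these shares were 10.6% and 1.31%. The rule favours such stretches in the members, so the difference is a description. Together they measured 0.832 Mb. Control lists covered 46.5% (replicate 1), 55.5% (replicate 2) and 35.2% (replicate 3) of this length. Of its base pairs 25.1% lay in no Control list, 28.8% in 1, 29.9% in 2 and 16.2% in all 3. Such stretches in all constant regions, 1.48 Mb with the members included, had nearly the same shares: 24.1% lay in no Control list, 28.4% in 1, 30.4% in 2 and 17.0% in all 3. The 0.832 Mb of the members is part of that length, so the likeness is in part built in. The reverse kind of stretch, held by all CDK8KD lists and no CDK19KD list, occurred in 11 members and measured 0.00562 Mb, while 30.5% of the constant regions held one. The rule works against this kind in the members.

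The members were weaker than constant regions in general, also in the Control lists. Those entered the rule only through the merging of peaks and the need for a peak in all 9 lists. The strongest peak of a member had a median percentile, within its own list by −log10 p, of 63.5, 73.6 and 72.1 in Control, where all constant regions had 72.3, 79.2 and 78.6. In CDK19KD these were 69.2, 71.8 and 72.3 against 72.6, 75.3 and 74.0, and in CDK8KD 57.1, 63.9 and 61.9 against 71.9, 76.1 and 76.2. All 9 lists placed the members lower, and the CDK8KD lists by the most. The members were picked for low CDK8KD coverage, so that larger drop is a description. When the constant regions were put in 5 classes by their mean percentile in Control, members made up 6.42% of the weakest class, 5.88% and 4.57% of the next ones and 2.82% of both the strong classes. The regions broader in CDK8KD made up 18.4% to 20.8% of these classes.

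The 5 members with the strongest peaks in Control had gaps of 218 to 1357 bp. The strongest, chr11:9479744-9487333 (7590 bp), was covered over 6890, 6434 and 6482 bp in CDK19KD, 6276, 7366 and 6114 bp in Control and 6216, 6071 and 5598 bp in CDK8KD. Its fold enrichment was 8.53 to 9.52 in CDK19KD, 6.49 to 9.51 in Control and 7.87 to 9.35 in CDK8KD, with overlap of all groups. For the next 3, chr10:101533678-101546706, chr9:72868360-72882969 and chr4:169394002-169414039, the gaps were 320, 232 and 324 bp. The last of the 5, chr6:26152370-26167037 (14668 bp), had a gap of 1357 bp. It had 10467, 10316 and 10163 bp in CDK19KD, 8698, 8771 and 11994 bp in Control and 6478, 8806 and 7396 bp in CDK8KD, and Control overlapped with both.

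Members occurred on all 22 chromosomes, at unequal shares. They were 6.75% of the constant regions of chromosome 18 (43 of 637), 6.61% of those of chromosome 4 (117 of 1769), 5.29% on chromosome 2 and 5.27% on chromosome 5. Chromosome 13, another gene-poor chromosome, had 5.18% (41 of 791). The lowest shares were 1.68% on chromosome 19 (18 of 1074), 2.10% on chromosome 20 (14 of 666), 3.09% on chromosome 22 and 3.11% on chromosome 16. The opposite order ran from 13.3% of the constant regions on chromosome 4 to 28.2% on chromosome 20. A difference between chromosomes was not tested.

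**Figure D4:**
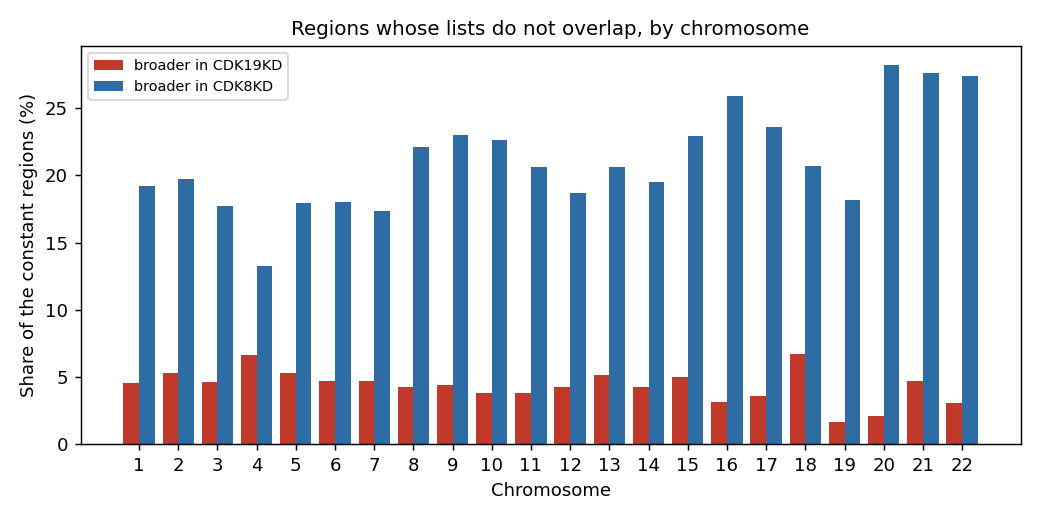
Share of the constant regions of each chromosome (vertical axis, %) in which all CDK19KD lists covered more than all CDK8KD lists (red, the members) or the reverse (blue). Members range from 1.68% on chromosome 19 to 6.75% on chromosome 18, and the reverse order is the more frequent on every chromosome.

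Where constant regions were sparse, members were somewhat more frequent. With the constant regions in 5 equal classes by the number of others within 1 Mb, members made up 4.96% and 5.01% of the sparsest ones, 4.67% and 4.03% of the next, and 3.83% of the densest. The regions broader in CDK8KD went the other way, from 17.4% to 22.6%. The lists of a group differed in this pattern. From the sparsest to the densest class the median covered share went from 69.0% to 61.3% in Control replicate 1, from 70.4% to 63.3% in CDK19KD replicate 1 and from 76.6% to 70.3% in CDK8KD replicate 1. It went the other way in the replicate 3 lists, from 60.7% to 68.4% in Control, from 59.2% to 66.3% in CDK19KD and from 66.3% to 79.8% in CDK8KD. The replicate 2 lists went from 76.8% to 63.6% in Control, from 61.7% to 61.2% in CDK19KD and from 67.6% to 74.2% in CDK8KD. The part of this in the shares of members was not tested.

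Members lay near each other. Each member's nearest constant region on either side was taken as its neighbour, and a region between 2 members was counted for each. Of these 2748 neighbours 260 (9.46%) were members too, where 4.50% of all constant regions are. For neighbours less than 20 kb away the share was 12.7% (148 of 1166), from 20 to under 100 kb 8.12%, from 100 to under 500 kb 5.15%, and at 500 kb or more 0 of 61. Neighbours that were not members had a median difference in covered share, CDK19KD minus CDK8KD, of −0.831 points within 20 kb of a member and of −9.14 points within 20 kb of a non-member. At 100 to under 500 kb these medians were −4.31 and −6.82 points. Regions broader in CDK8KD were also next to their own kind, at 31.1% of their neighbours, where 20.1% of all constant regions are of that kind. The same was seen with covered length scaled by the total of each list, where 17.1% of the neighbours of a region broader in CDK19KD were so too, against 10.9% of all.

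**Figure D5:**
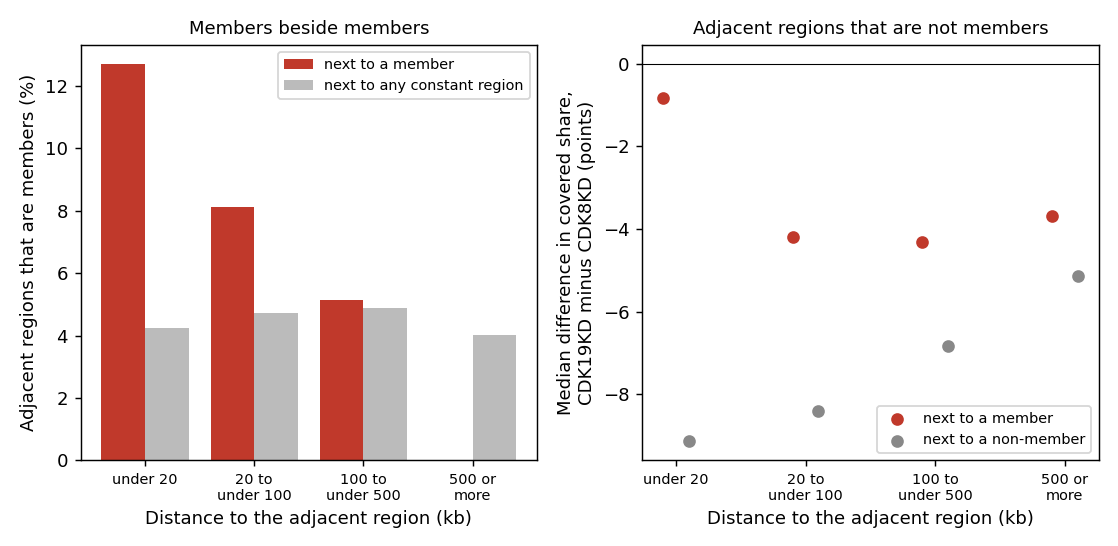
Left, share of adjacent constant regions that are members (vertical axis, %) by distance in kb, for regions next to a member (red) and next to any constant region (grey). Right, median difference in covered share (CDK19KD minus CDK8KD, points) of adjacent non-members, next to a member (red) or a non-member (grey); under 20 kb the medians are −0.831 and −9.14 points.

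As runs of members with no other constant region between them, 1129 held a single member, 101 held 2, 13 held 3 and 1 held 4. The run of 4 extends over 111502 bp, chr7:46188933-46300434. Its first member, chr7:46188933-46195518, was covered over 4569, 4877 and 4588 bp in CDK19KD, 1944, 1143 and 1613 bp in Control and 1834, 1692 and 2326 bp in CDK8KD. The second, chr7:46198809-46206695, had 7154, 7156 and 6612 bp in CDK19KD, 6730, 3690 and 5551 bp in Control and 2337, 2793 and 3061 bp in CDK8KD. In the remaining ones, chr7:46257835-46262286 and chr7:46295425-46300434, the CDK19KD lists covered 3195 to 4298 bp and 4158 to 4449 bp, and the CDK8KD lists 1718 to 2078 bp and 2594 to 3105 bp. Control lay with CDK8KD in the first of them, between the knockdowns or among CDK19KD in the second, overlapped with CDK8KD in the one after that, and lay between the knockdowns in the last, at 3367 to 3511 bp.

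Among the runs of 3, the shortest was chr21:30474488-30505599. Its middle region, chr21:30483723-30489911, had 6081, 5010 and 4423 bp in CDK19KD, 3090, 3162 and 1848 bp in Control and 2832, 2536 and 2661 bp in CDK8KD. By windows of 1 Mb, 898 of 2414 windows with a constant region held a member, and 108 held at least 3. Chromosome 1 from 198 to 199 Mb and chromosome 4 from 77 to 78 Mb each held 6 members and no region of the opposite order, among 18 and 29 constant regions. Chromosome 6 from 11 to 12 Mb also held 6, with 3 regions of the opposite order, among 31. On chromosome 4 from 176 to 177 Mb, between the pair of wide-gap regions described above, 5 of 10 constant regions were members.

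How many members there were depended on the scale of the lists. When the covered length was divided by each list's total over the constant regions, 3337 regions were broader in CDK19KD and 3096 in CDK8KD (10.9% and 10.1%), in place of 1374 and 6131, and all 1374 members were among the 3337. They had to be, since every CDK19KD total was below every CDK8KD total. With peaks of a −log10 q of at least 5 the counts were 254 and 1802, and 191 of the 1374 members overlapped 1 of these 254. CDK8KD replicate 1 was the highest CDK8KD list in 48.3% of the members and in 38.6% of all constant regions, and without it 3143 regions met the rule. Without CDK19KD replicate 3 there were 2773, without CDK8KD replicate 3 2181, without CDK8KD replicate 2 2132, and without CDK19KD replicate 2 2106. A rule over fewer lists is easier to meet. With lists compared only within their replicate number, 3811 regions were broader in CDK19KD and 11968 in CDK8KD, and 1440 of the former had Control below CDK19KD. That rule too is easier to meet.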

How the data were processed

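H3K27ac ChIP-seq peak lists of 9 libraries (3 each of Control, CDK19KD and CDK8KD, grouped by sample title) were used as deposited. MACS2, deepTools and hg19 are named in the submitters' processing notes. Versions, settings, control library and read depth are not given in the sources used here, so no counting error was computed. The deposited fold enrichment (a ratio), −log10 p and −log10 q are the authors' values for each peak in its own library, and the deposited score is 10 times the −log10 q. A list's peaks were at least 1001 bp apart in every file, which sets the shortest gap that can be seen. Coordinates are hg19, counted from 1.

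Covered length per region and list was computed in Python 3.11.15 with pandas 2.3.3. Covered shares of 30540 constant regions were tested with limma 3.58.1 (trend, all 9 lists, Benjamini-Hochberg over all regions), checked on simulated data. Totals were tested by exact permutation. The labels give the groups the same replicate numbers. Deviations of same-numbered lists correlated above 0.1 in all 3 pairs of CDK19KD with CDK8KD and of CDK19KD with Control, and in 2 of 3 pairs of CDK8KD with Control, so that blocked values are given beside the first pair of comparisons. The members, lists and named regions were chosen with earlier results of these data known. Named were the 10 members with the largest gap, the 5 with the largest gap per width, the 5 farthest from Control on either side, the 3 on each side of the threshold, the 5 strongest in Control (34 distinct regions), and runs of members, which were picked after their values were seen. No annotation or genome of hg19 was used, so genes, marker genes, gene lists and sequences at the regions were not analysed here. Alternatives tried were scaled lists, leaving out each list, all widths, chromosome X, joined peaks, peaks of at least 500 bp, a replicate block, and only the 20000 strongest peaks or those with a −log10 q of 5 or more.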

Additional observations from a re-analysis of the deposited data

Results flagged for a closer look

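In 21 members every CDK19KD list covered more, and every CDK8KD list less, than every Control list. Any region with this order is a member by the rule, and these 21 were 0.0688% of all constant regions. In them the knockdowns lay on opposite sides of Control. That difference was not tested, since the members were picked for it in part. The regions on chromosomes 10, 13 and 1 with wide gaps for their width, and chr2:173690999-173705132, are examples.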

How the results depend on the processing

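The counts below are in the order CDK19KD broader and CDK8KD broader (1374 and 6131 as reported), then members with Control below CDK19KD and with Control above CDK8KD (415 and 362). They were 254, 1802, 62 and 88 with a −log10 q of at least 5, 269, 2198, 65 and 100 with the 20000 strongest peaks, and 3337, 3096, 1032 and 888 with scaled lists. With the replicate block, where each CDK19KD list had to exceed only the CDK8KD list of its number, they were 3811, 11968, 1440 and 1496. Leaving out 1 list gave 1376 to 3143, 6161 to 9155, 521 to 936 and 425 to 1107. Fewer peaks enter the first pair of settings, and fewer lists have to agree in the last; the cause of the other shifts was not tested. Peaks of at least 500 bp, chromosome X and all widths kept each of these 4 counts within 1.5 times, and joining peaks within 1000 bp could change nothing, since no peaks of a list lie that close.

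By limma, CDK19KD against CDK8KD had 0 regions higher and 0 lower as reported. It had 0 and 2 with a −log10 q of at least 5, 1 and 5 with the 20000 strongest peaks, 2 and 0 with scaled lists, and 0 to 132 and 0 to 381 with 1 list left out. With the replicate block it had 668 and 2953, and 517 of the 1374 members were among the 668, on the contrast that had picked them. Against Control, CDK19KD (1 and 0 as reported) had 0 higher with a −log10 q of at least 5, 5 higher with scaled lists, 489 and 351 with the replicate block, and 0 to 16 and 0 to 2 with 1 list left out. CDK8KD against Control (1 and 0) had 0 higher with a −log10 q of at least 5, 17 and 1 with the 20000 strongest peaks, 2 higher with peaks of at least 500 bp, 0 with scaled lists or all widths, 2789 and 528 with the replicate block, and 0 to 219 and 0 to 32 with 1 list left out.

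Deviations of same-numbered lists from their group means correlated at 0.0966 to 0.556 (mean 0.382, against −0.19 for lists of other numbers), 8 of 9 pairs above 0.1, and the own number was the best match in 17 of 18 cases. Deviations from a group mean cancel out within the group, so the mean for other numbers follows largely from that for same numbers. The pair under 0.1 was Control 2 with CDK8KD 2, so for CDK8KD against Control the lists share only a number by the criterion of 0.1 in every pair. Applying that criterion to each comparison by itself was chosen after the blocked calls had been seen. The log2 ratio of total length stayed at −0.19 to −0.15 in every setting (exact permutation p = 0.1, with the replicate block 0.25, both the smallest possible). Scaling fixes that total, so it gave no value there. For the named regions, under settings that can alter it, the mean difference between CDK19KD and CDK8KD stayed within the spread in 287 recomputed values, moved by more in 52 and changed sign in 1, to −792 bp for chr6:106204353-106213915 with a −log10 q of at least 5. Some moved to 0 with the 20000 strongest peaks. Among these were chr2:32626115-32655342, both wide-gap regions on chromosome 4, chr10:94994291-94997437 and chr13:49925273-49933194. With unknown read depth, a stretch that is not in a list was not detectable in that library.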
